A study of Homo sapiens with 6 samples.

Results

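The genes described here encode the nuclear-encoded subunits of the mitochondrial respiratory chain and some of the factors that assemble them. They were taken by symbol from the deposited expression table of MM1.S cells, as every gene whose symbol begins with NDUF, UQCR, COX4 to COX8 or ATP5, together with SDHA, SDHB, SDHC and SDHD. Of the 11048 gene symbols in the table, 70 met this rule. The rule uses symbols and no measured value, though it was set with earlier results of these data known. The NDUF symbols gave 46 genes, the UQCR symbols 9, the COX symbols 11 and the SDH symbols 4, whereas 0 symbols beginning with ATP5 were listed. Grouped by the complex to which their products belong, 44 genes belonged to complex I, 4 to complex II, 9 to complex III and 13 to complex IV. NDUFA4, which was first assigned to complex I and is now placed in complex IV, and its paralogue NDUFA4L2 were counted with complex IV. ATP synthase, or complex V, and the subunits encoded by mitochondrial DNA were not analysed here.

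The respiratory chain lies in the inner mitochondrial membrane. Complex I takes electrons from NADH and complex II takes them from succinate, both pass them to ubiquinone, complex III hands them on to cytochrome c, and complex IV gives them to oxygen. Complexes I, III and IV pump protons as they do so, and complex V uses the proton gradient to make ATP. Each complex has core subunits that carry the redox centres or the proton path, and complexes I, III and IV also have supernumerary (accessory) subunits, many of them small membrane proteins, that support assembly and stability. All subunits of complex II are encoded in the nucleus, and the other complexes combine nuclear with mitochondrially encoded subunits.

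MM1.S cells derive from human multiple myeloma, a cancer of plasma cells, and are kept as an established line. They were treated for 6 h with 3 µM CCF642, an inhibitor of the protein disulfide isomerase PDIA1, with 3 µM of its analogue CCF642-34, or with DMSO, and 2 libraries per group were sequenced after oligo(dT) enrichment of mRNA. The comparisons ask which transcripts each compound changed compared to DMSO, and how the 2 compounds differed at the same dose and time. The labels do not say that the libraries of a group came from separate cultures, so the p values measure only the spread between these libraries, which may be technical. Expression was given as CPM, the read count of a gene scaled to a fixed library total, and is thus a share of the reads of a library, and the totals were 20567313 to 28459677 reads per library. A lower CPM therefore cannot be told apart from higher levels of other genes, and CPM does not show a change in cell number or total RNA. In RNA from whole cultures, fewer cells with a transcript and less of it per cell cannot be told apart either. All 9 plasma cell markers that were looked up were listed. Of the markers of other cells, 0 of 4 B cell, 1 of 4 T cell, 0 of 4 myeloid and 3 of 5 stromal and erythroid genes were listed, and COL1A1 among the last stood at 1.09 and 1.5 CPM with DMSO, 8.99 and 10.5 CPM with CCF642, and 2.74 and 3.53 CPM with CCF642-34. The part of such genes in the results was not tested.

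Promoter sequence was read for the members that moved most, since genes of the respiratory chain are known to share binding sequences for the transcription factors NRF1, GABPA (an ETS factor) and YY1. RefSeq windows on GRCh38.p14, which run from 250 bases before to 50 bases after the annotated start of a gene, were at hand for 58 of the 70 members. The 250 bases before the start are printed 5′ to 3′ on the strand of the gene, with capitals where the letters of a searched motif stand. NDUFS4 had the largest called increase with CCF642-34 and NDUFB3 the largest called decrease among the members with a window. UQCR11 and COX6A1 were added after the values had been seen. They were taken from the members lower with CCF642 and higher with CCF642-34 than with CCF642 that held an NRF1 or ETS motif. UQCR10 also had this pattern, an NRF1 match in its window and a smaller adjusted p between the compounds by limma than UQCR11, but is not printed.
NDUFS4 (chr5:53560389-53560638, plus strand): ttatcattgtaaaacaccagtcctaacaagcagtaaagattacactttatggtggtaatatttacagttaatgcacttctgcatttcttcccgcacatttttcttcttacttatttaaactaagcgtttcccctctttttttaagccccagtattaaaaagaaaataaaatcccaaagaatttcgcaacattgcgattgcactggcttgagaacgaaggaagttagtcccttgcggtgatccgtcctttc
NDUFB3 (chr2:201071751-201072000, plus strand): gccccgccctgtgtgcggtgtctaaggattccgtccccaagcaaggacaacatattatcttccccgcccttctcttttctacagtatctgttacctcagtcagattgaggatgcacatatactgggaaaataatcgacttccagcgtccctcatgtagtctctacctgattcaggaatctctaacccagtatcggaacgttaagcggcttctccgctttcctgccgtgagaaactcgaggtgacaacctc
UQCR11 (chr19:1605463-1605712, minus strand): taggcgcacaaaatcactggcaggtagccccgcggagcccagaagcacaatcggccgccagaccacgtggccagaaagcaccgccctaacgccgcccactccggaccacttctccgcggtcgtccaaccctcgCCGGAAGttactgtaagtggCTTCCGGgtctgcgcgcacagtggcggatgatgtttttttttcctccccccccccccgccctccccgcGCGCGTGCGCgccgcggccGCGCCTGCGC
COX6A1 (chr12:120437863-120438112, plus strand): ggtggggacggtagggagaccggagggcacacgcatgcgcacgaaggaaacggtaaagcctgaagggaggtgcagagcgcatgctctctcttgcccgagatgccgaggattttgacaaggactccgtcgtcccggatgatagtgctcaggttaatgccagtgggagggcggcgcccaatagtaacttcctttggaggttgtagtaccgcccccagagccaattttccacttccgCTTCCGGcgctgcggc

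The stretch before UQCR11 held 2 matches to the NRF1 letters (GCGC, any base, then TGCGC) and 2 to the ETS letters CCGGAAG, and that before COX6A1 held 1 ETS match. The printed bases before NDUFS4 and NDUFB3 held 0 matches. Both strands were searched over the whole 300-base windows, which also take in the first bases of each gene, and there NDUFS4 had 1 match to the YY1 letters and NDUFB3 had 0 matches. NRF1 letters were found in 13 of the 58 member promoters (22.4%), against 12.3% of the 8871 promoters of listed genes and 6.28% of all 27305 promoters. ETS letters were in 16 (27.6%), against 20.2% and 10.7%, and the YY1 letters AAGATGGC in 8 (13.8%), against 5.83% and 3.03%. Matches to the C/EBP-ATF letters TGATGNAA were in 1 member promoter (1.72%), against 1.60% and 3.67%, and to the TATA letters TATAAA in 5 (8.62%), against 5.15% and 12%. Among the 35 members with a window that were lower with CCF642, 8 held the NRF1 letters, 10 the ETS letters and 3 the YY1 letters, and among the other 23 members these were in 5, 6 and 5. A match describes the letters and does not show that a factor binds there.

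The members were well expressed. Their median over all libraries was 82.5 CPM, against 36.8 CPM for all listed genes, and their median transcript length was 716 bases, against 1831 bases. Divided by length, the mean levels with DMSO ran from 0.216 CPM per kilobase for NDUFA4L2 to 478 ± 13.8 CPM per kilobase (SD, n = 2) for NDUFV1, the complex I subunit that takes electrons from NADH. COX8A at 404 ± 8.49 and UQCRH at 373 ± 0.194 CPM per kilobase followed NDUFV1, and the next was UQCRC2 at 332 ± 0.293. Among the subunits of complex II the length-scaled level was 268 ± 2.53 CPM per kilobase for SDHA, 226 ± 0.968 for SDHC, 171 ± 4.03 for SDHD and 117 ± 1.35 for SDHB. These values rest on GENCODE transcript lengths and order the genes only roughly.

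Summed over all members, the transcripts took 0.709% and 0.728% of the reads with DMSO, 0.579% and 0.561% with CCF642, and 0.685% and 0.668% with CCF642-34. The CCF642 libraries were thus the lowest on this unscaled measure. The comparisons used CPM after TMM scaling (a trimmed mean over genes sets the bulk of them level between libraries). On the scaled values the sum was 6724 and 6914 with DMSO, 6017 and 5863 with CCF642, and 6940 and 6737 with CCF642-34. The mean sum changed by -12.9% with CCF642 and by 0.285% with CCF642-34, and without the scaling these changes were -20.6% and -5.78%. With 2 libraries against 2, an exact permutation test of a sum cannot give a p below 0.333, so the sums are given as a description.

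The summed level of each of the 4 complexes was lower with CCF642. The scaled sum of complex I was 3373 and 3464 with DMSO, 3103 and 2994 with CCF642, and 3550 and 3426 with CCF642-34. Complex II had 827 and 828 with DMSO, 681 and 698 with CCF642, and 779 and 773 with CCF642-34. For complex II the libraries of both compounds lay below those with DMSO, and for complexes I, III and IV the scaled sums with CCF642-34 overlapped those with DMSO. Without scaling, the CCF642-34 sums lay below both DMSO sums in complexes I, III and IV as well. For complex I these were 3505 and 3397 with CCF642-34 against 3554 and 3647 with DMSO. SDHA alone made up most of the complex II sum. With CCF642-34, 1 of the 4 complex II subunits was lower, 1 was higher and 2 were not called, with a median log2 fold change of 0.01. The shares of all listed genes there were 27.9% lower and 29.7% higher. Complex III summed to 981 and 1007 with DMSO, 889 and 884 with CCF642, and 1031 and 1003 with CCF642-34. Complex IV summed to 1543 and 1615 with DMSO, 1344 and 1287 with CCF642, and 1580 and 1535 with CCF642-34. The CCF642 sums did not overlap those of the other groups in any complex.

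**Figure D1:**
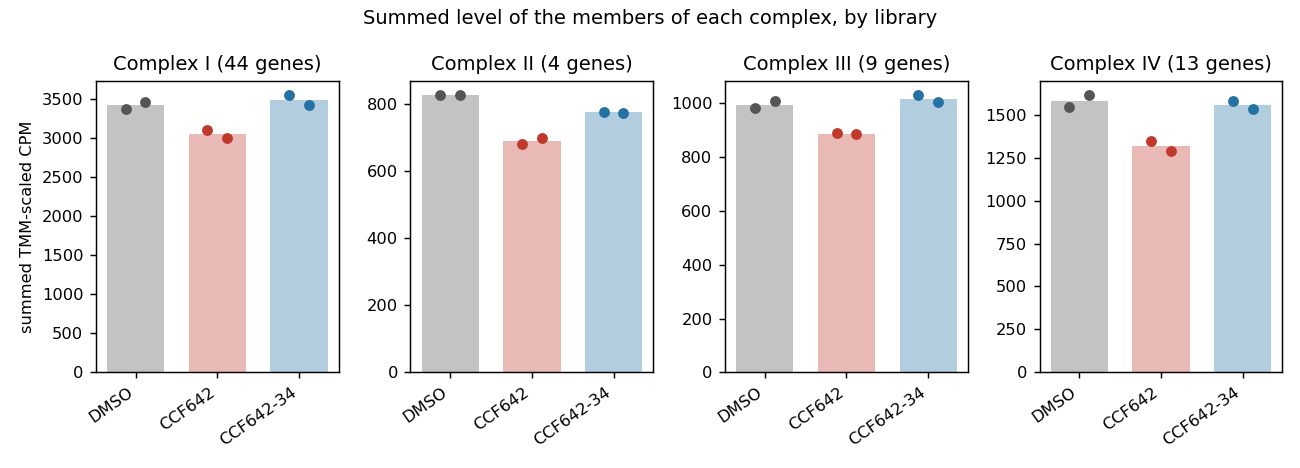
Summed TMM-scaled CPM of the members of complexes I, II, III and IV in each library (points), with the mean of each group as a bar starting at 0. In every panel both CCF642 libraries (red) lie below the DMSO libraries (grey) and the CCF642-34 libraries (blue). In complex II, a sum made up mostly of SDHA, the CCF642-34 libraries also lie below DMSO.

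CCF642 lowered the transcripts of most members. Of the 70, 42 (60.0%) were lower than with DMSO and 5 (7.14%) higher at a Benjamini-Hochberg adjusted p under 0.05 by limma, and 23 were not called. Over all listed genes 31.3% were lower and 31.8% higher. The median log2 fold change was -0.20 for the members, a change of -13.2%, and -0.01 for all genes. Both CCF642 libraries lay below both DMSO libraries for 54 members (40.3% of all genes) and above them for 6 (39.1%). Each CCF642 library had 60 of the 70 members below the DMSO mean, with a median of -0.17 in replicate 1 and -0.22 in replicate 2. The changes were small, and at the criterion of the study, a 2-fold change with unadjusted p under 0.05, 1 member passed (NDUFA4L2, upward), against 6.49% of all genes in either direction and 4.5% upward. NDUFA4L2 was barely detected and is listed only through libraries of a compound, which favours an increase.

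**Figure D2:**
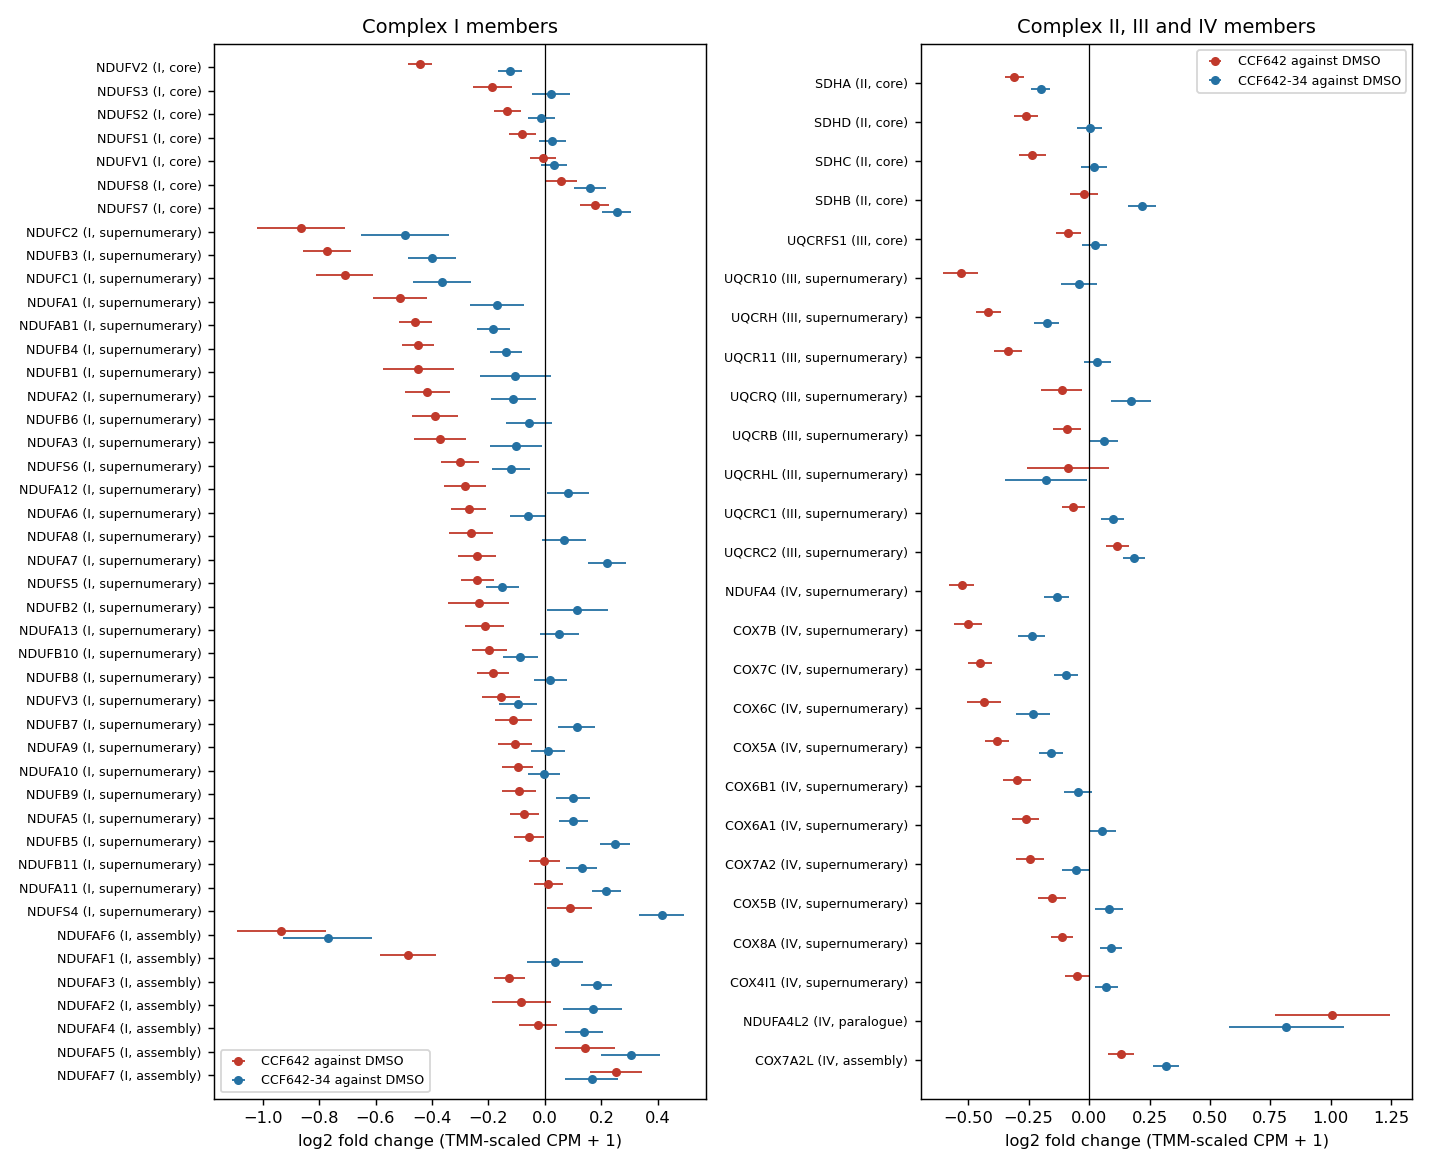
Log2 fold change of each of the 70 members compared to DMSO (x axis, TMM-scaled CPM + 1; point, limma estimate; bar, 1 standard error) with CCF642 (red) and CCF642-34 (blue), with complex and class beside each symbol (y axis). For most genes the red point lies to the left of 0 and the blue point lies between it and 0 or past 0; NDUFC2, NDUFB3 and NDUFAF6 lie far to the left with both.

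In complex I, 26 of 44 members (59.1%) were lower with CCF642, 2 were higher and the median was -0.19. The shares of all listed genes were 31.3% lower and 31.8% higher. Among the 7 core subunits, 3 (42.9%) were lower and 1 (14.3%) higher (median -0.08), too few genes to set apart from those shares. Among the 30 supernumerary subunits 20 (66.7%) were lower and 0 higher (median -0.24). The core subunit with the largest change, picked after the values were seen, was NDUFV2, an iron-sulfur protein of the arm that oxidises NADH. It had 304 and 298 CPM with DMSO, 204 and 199 CPM with CCF642, and 261 and 259 CPM with CCF642-34. The 3 groups did not overlap, and CCF642-34 stood between the others. Its log2 fold change was -0.44 ± 0.04 (SE, adjusted p = 1.1e-12) with CCF642, -0.12 ± 0.04 (adjusted p = 0.012) with CCF642-34, and 0.32 ± 0.04 (adjusted p = 5.1e-08) between the compounds.

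NDUFV1, the flavin-bearing neighbour of NDUFV2 in the same arm, had 329 and 343 CPM with DMSO, 325 and 286 CPM with CCF642, and 331 and 315 CPM with CCF642-34. It was also chosen after its values were seen, and it was called in none of the 3 comparisons, with log2 fold changes of -0.01, 0.03 and 0.04 ± 0.05. NDUFS7, which holds the last iron-sulfur cluster before ubiquinone, went the other way from NDUFV2. It had 128 and 132 CPM with DMSO, 137 and 132 CPM with CCF642, and 155 and 138 CPM with CCF642-34, and on the scaled values it was higher with CCF642 (log2 fold change 0.18, adjusted p = 0.0031) and with CCF642-34 (0.25, adjusted p = 4.6e-05). Without scaling, the change with CCF642 was 0.04 with adjusted p = 0.479, and without DMSO replicate 1 the scaled change was 0.15 with adjusted p = 0.054. The core subunits of complex I therefore did not move as a block.

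NDUFC2, a supernumerary subunit of the membrane arm, had 8.74 and 9.20 CPM with DMSO, 4.86 and 3.36 CPM with CCF642, and 5.62 and 5.76 CPM with CCF642-34. Both compounds lay below DMSO, by -0.86 ± 0.15 with CCF642 (adjusted p = 4.1e-06) and -0.50 ± 0.15 with CCF642-34 (adjusted p = 0.0055), and the difference between the compounds, 0.37 with a 95% interval of 0.06 to 0.68, did not pass the test (adjusted p = 0.061), and it ranged from 0.16 (adjusted p = 0.53) without CCF642 replicate 2 to 0.58 (adjusted p = 0.00577) without CCF642 replicate 1. NDUFB3, another membrane arm subunit chosen after its values were seen, had 52.3 and 51.0 CPM with DMSO, 31.0 and 23.8 CPM with CCF642, and 36.8 and 36.3 CPM with CCF642-34. Its groups did not overlap, and its log2 fold changes were -0.77 and -0.40 compared to DMSO and 0.37 between the compounds (adjusted p = 0.00051). Exons of NDUFB3 overlap those of FAM126B on the opposite strand, which was higher with CCF642 by 0.27.

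NDUFA7, an accessory subunit, was lower with CCF642 and higher with CCF642-34. It had 57.7 and 63.1 CPM with DMSO, 45.5 and 47.4 CPM with CCF642, and 68.1 and 64.5 CPM with CCF642-34. The groups did not overlap, and the log2 fold changes were -0.24 (adjusted p = 0.0016), 0.22 (adjusted p = 0.0041) and 0.46 between the compounds (adjusted p = 3.0e-07). Its exons overlap those of the ribosomal protein gene RPS28 on the opposite strand, which rose by 0.16 with CCF642 and 0.40 with CCF642-34, and whether reads were assigned by strand is not given in the sources used here. The change with CCF642 was -0.18 (adjusted p = 0.083) without DMSO replicate 2, and that with CCF642-34 was 0.16 (adjusted p = 0.135) without DMSO replicate 1, 0.18 (adjusted p = 0.072) without CCF642-34 replicate 1 and 0.13 (adjusted p = 0.084) without scaling. NDUFS4, an accessory subunit of the NADH-oxidising arm, had the largest increase with CCF642-34 among the well expressed members. It had 33.4 and 31.3 CPM with DMSO, 32.7 and 30.1 CPM with CCF642, and 40.4 and 41.2 CPM with CCF642-34. Only the CCF642-34 libraries stood apart, with log2 fold changes of 0.41 ± 0.08 (adjusted p = 1.6e-05) compared to DMSO and 0.33 (adjusted p = 0.0011) compared to CCF642, and the change with CCF642 was 0.09 (adjusted p = 0.34).

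The 7 assembly factors of complex I, which help to build the enzyme and are not part of it, were mixed: 3 were lower and 1 higher with CCF642, and 1 was lower and 2 higher with CCF642-34. Over all listed genes 31.3% were lower and 31.8% higher with CCF642, and 27.9% and 29.7% with CCF642-34. NDUFAF6 had 10.7 and 8.60 CPM with DMSO, 3.45 and 4.87 CPM with CCF642, and 4.88 and 4.86 CPM with CCF642-34. Both compounds lay below DMSO, with log2 fold changes of -0.93 ± 0.16 (adjusted p = 1.4e-06) and -0.77 ± 0.16 (adjusted p = 4.7e-05), and the compounds overlapped, with a difference of 0.16 and a 95% interval of -0.15 to 0.48. NDUFAF1 had 25.1 and 22.4 CPM with DMSO, 14.4 and 16.0 CPM with CCF642, and 22.2 and 23.5 CPM with CCF642-34. Here only CCF642 was low, by -0.48 ± 0.10 compared to DMSO, and the difference between the compounds was the largest among the members at 0.52 ± 0.10 (adjusted p = 4.7e-05).

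NDUFAF5 had 15.2 and 18.2 CPM with DMSO, 17.0 and 16.6 CPM with CCF642, and 19.5 and 19.6 CPM with CCF642-34, and it was higher with CCF642-34 by 0.30 (adjusted p = 0.012). This call was lost without DMSO replicate 1 (0.18, adjusted p = 0.269), without CCF642-34 replicate 1 (0.30, adjusted p = 0.058), without CCF642-34 replicate 2 (0.31, adjusted p = 0.060) and without scaling (0.22, adjusted p = 0.069). The methyltransferase NDUFAF7 had 22.7 and 21.0 CPM with DMSO, 24.5 and 23.3 CPM with CCF642, and 22.0 and 24.4 CPM with CCF642-34. It was called higher with CCF642 only (0.25, adjusted p = 0.017), and its difference between the compounds was -0.09 with a 95% interval of -0.27 to 0.10. The call was lost without DMSO replicate 2 (0.20, adjusted p = 0.166), without CCF642 replicate 1 (0.22, adjusted p = 0.068), without scaling (0.12, adjusted p = 0.247) and by DESeq2 (adjusted p = 0.051), and NDUFAF7 shares exon sequence with CEBPZ and PRKD3 on the opposite strand.

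Complex II, succinate dehydrogenase, had 3 of 4 subunits lower and 0 higher with CCF642, against 31.3% and 31.8% of all listed genes. SDHA, the flavoprotein that oxidises succinate, had 534 and 542 CPM with DMSO, 389 and 402 CPM with CCF642, and 443 and 437 CPM with CCF642-34. All 3 groups stood apart, with log2 fold changes of -0.31 ± 0.04 (adjusted p = 1.9e-09) and -0.20 ± 0.04 (adjusted p = 2.0e-05) compared to DMSO. Between the compounds SDHA differed by 0.11 (adjusted p = 0.025), a call that was lost without any 1 of 5 libraries, all but CCF642 replicate 2, where the difference lay between 0.08 and 0.12. SDHB, the iron-sulfur subunit, had 82.8 and 81.4 CPM with DMSO, 71.2 and 76.3 CPM with CCF642, and 87.8 and 92.1 CPM with CCF642-34. On the scaled values it was not called with CCF642 (-0.02, adjusted p = 0.78), it was higher with CCF642-34 (0.22, adjusted p = 0.0012), and the compounds differed by 0.24 (adjusted p = 0.0011), whereas without scaling the first 2 changes were -0.15 (adjusted p = 0.019) and 0.13 (adjusted p = 0.052).

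The membrane anchors SDHC and SDHD moved alike. SDHC had 104 CPM in both DMSO libraries, 79.4 and 81.4 CPM with CCF642, and 99.1 and 99.0 CPM with CCF642-34. SDHD had 150 and 145 CPM with DMSO, 116 and 108 CPM with CCF642, and 139 CPM in both libraries with CCF642-34. In both genes the CCF642 libraries were the lowest, with log2 fold changes of -0.23 (adjusted p = 0.00022) and -0.26 (adjusted p = 1.5e-05), and CCF642-34 was not called compared to DMSO (0.02 and 0.00) but differed from CCF642 by 0.25 and 0.26 (adjusted p = 0.00025 and 5.2e-05). Exons of SDHD overlap those of TIMM8B on the opposite strand, which was lower with CCF642 by -0.53, and those of SDHC overlap CFAP126, at 5.62 to 9.35 CPM.

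In complex III, which moves electrons from ubiquinone to cytochrome c, 3 of 9 members (33.3%) were lower with CCF642 and 1 (11.1%) was higher. Over all listed genes 31.3% were lower and 31.8% higher, so the count of lower members was near that share. The median was -0.09, against -0.01 for all genes. UQCR10, a small accessory subunit, had 69.2 and 71.6 CPM with DMSO, 48.2 and 40.3 CPM with CCF642, and 69.7 and 59.2 CPM with CCF642-34. Only CCF642 was low, with log2 fold changes of -0.53 ± 0.07 (adjusted p = 1.7e-08) compared to DMSO and 0.49 ± 0.07 (adjusted p = 5.9e-07) between the compounds, and CCF642-34 overlapped DMSO (-0.04, adjusted p = 0.65). UQCR11, whose promoter is printed above, had 126 and 141 CPM with DMSO, 92.9 and 99.4 CPM with CCF642, and 136 and 122 CPM with CCF642-34. Its pattern was the same, with -0.34 (adjusted p = 1.5e-06), 0.03 (adjusted p = 0.63) and 0.37 between the compounds (adjusted p = 1.2e-06).

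UQCRH, the hinge protein that aids binding of cytochrome c, had 225 CPM in both DMSO libraries, 167 and 141 CPM with CCF642, and 191 and 184 CPM with CCF642-34. It was lower with both, by -0.42 (adjusted p = 1.3e-09) and -0.18 (adjusted p = 0.0032), though without CCF642-34 replicate 2 the second value was -0.14 with adjusted p = 0.084. UQCRHL, a near-identical gene, had 3.34 to 4.44 CPM in all libraries and was not called, and how reads shared by the 2 genes were assigned is not given in the sources used here. UQCRC2, a large matrix-side subunit without a redox centre, had 195 and 194 CPM with DMSO, 185 and 200 CPM with CCF642, and 204 and 212 CPM with CCF642-34. On the scaled values it was higher with CCF642-34 (0.19, adjusted p = 0.0006) and with CCF642 (0.12, adjusted p = 0.026). Without scaling the first was 0.10 with adjusted p = 0.068 and the second flipped to -0.02, and the second was not called without DMSO replicate 1 (adjusted p = 0.112), DMSO replicate 2 (adjusted p = 0.113) or CCF642 replicate 2 (0.06, adjusted p = 0.316).

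In complex IV, cytochrome c oxidase, 10 of 13 members were lower with CCF642 (8 to 10 without 1 library) and 2 were higher (median -0.26), and 4 were lower and 2 higher with CCF642-34. Over all listed genes 31.3% were lower with CCF642 and 27.9% with CCF642-34. The 4 members lower with CCF642-34 (30.8%) were thus near the share of all genes. NDUFA4 had 137 and 141 CPM with DMSO, 90.3 and 84.8 CPM with CCF642, and 118 and 119 CPM with CCF642-34. The groups did not overlap, with log2 fold changes of -0.53 ± 0.05 (adjusted p = 2.6e-12) and -0.13 ± 0.05 (adjusted p = 0.026) compared to DMSO and 0.39 ± 0.05 between the compounds (adjusted p = 5.0e-08). The change of NDUFA4 with CCF642-34 was not called without DMSO replicate 1 (adjusted p = 0.060), DMSO replicate 2 (0.208), CCF642-34 replicate 1 (0.090) or CCF642-34 replicate 2 (0.084). Its paralogue NDUFA4L2 was barely detected, at 2 and 9 reads for DMSO, 34 and 27 for CCF642, and 33 and 32 for CCF642-34. It was called higher with both compounds (log2 fold changes 1.01 and 0.82 on the CPM + 1 scale, the second being 0.63 with adjusted p = 0.0626 without DMSO replicate 1), but its exons overlap those of SHMT2 on the opposite strand, which had 265 and 273 CPM with DMSO, 578 and 548 CPM with CCF642, and 634 and 622 CPM with CCF642-34. The part of SHMT2 reads in the NDUFA4L2 values was not tested.

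Small accessory subunits of complex IV were lower with CCF642. COX7C had 211 and 214 CPM with DMSO, 151 and 132 CPM with CCF642, and 191 and 183 CPM with CCF642-34, with a log2 fold change of -0.45 ± 0.05 with CCF642 (adjusted p = 6.0e-11) and 0.36 between the compounds (adjusted p = 1.5e-07). COX7B had 115 and 122 CPM with DMSO, 73.2 and 79.0 CPM with CCF642, and 90.0 and 98.7 CPM with CCF642-34, with -0.50 and -0.24 compared to DMSO (adjusted p = 1.8e-10 and 0.00042). COX6C had 74.5 and 79.9 CPM with DMSO, 57.9 and 46.2 CPM with CCF642, and 61.3 and 61.7 CPM with CCF642-34. In all of these the CCF642 libraries were the lowest. COX7C was not called with CCF642-34 (-0.10, adjusted p = 0.099), though it was with GC and length correction (-0.13, adjusted p = 0.028) and without scaling (-0.18, adjusted p = 0.0016). COX6C was lower with both compounds (-0.44 and -0.23), but its difference between the compounds, 0.20, fell to 0.05 with adjusted p = 0.664 without CCF642 replicate 2 and was not called without CCF642-34 replicate 1 (adjusted p = 0.111) or 2 (adjusted p = 0.128), with GC and length correction (0.16, adjusted p = 0.089) or by DESeq2 (0.19, adjusted p = 0.114), and its change with CCF642-34 was -0.18 (adjusted p = 0.083) without DMSO replicate 2.

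Relatives within complex IV diverged. COX7A2, the common form of subunit 7A, had 112 and 110 CPM with DMSO, 88.3 and 81.7 CPM with CCF642, and 106 and 94.6 CPM with CCF642-34. It was lower with CCF642 (-0.25, adjusted p = 0.00024) and was not called with CCF642-34 (-0.06, adjusted p = 0.42), where the value ran from -0.14 to 0.03 without 1 library and was called lower without scaling (-0.14, adjusted p = 0.029). COX7A2L, the related factor that joins complexes III and IV into supercomplexes, had 103 and 110 CPM with DMSO, 105 and 108 CPM with CCF642, and 125 and 126 CPM with CCF642-34. With CCF642-34 it was above both other groups, by 0.32 ± 0.05 compared to DMSO (adjusted p = 1.1e-06) and 0.19 compared to CCF642 (adjusted p = 0.0047). The change with CCF642, 0.13 (adjusted p = 0.027), turned to -0.0018 without scaling, and it was 0.09 with adjusted p = 0.317 without DMSO replicate 1 and 0.10 with adjusted p = 0.123 without CCF642 replicate 2.

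**Figure D3:**
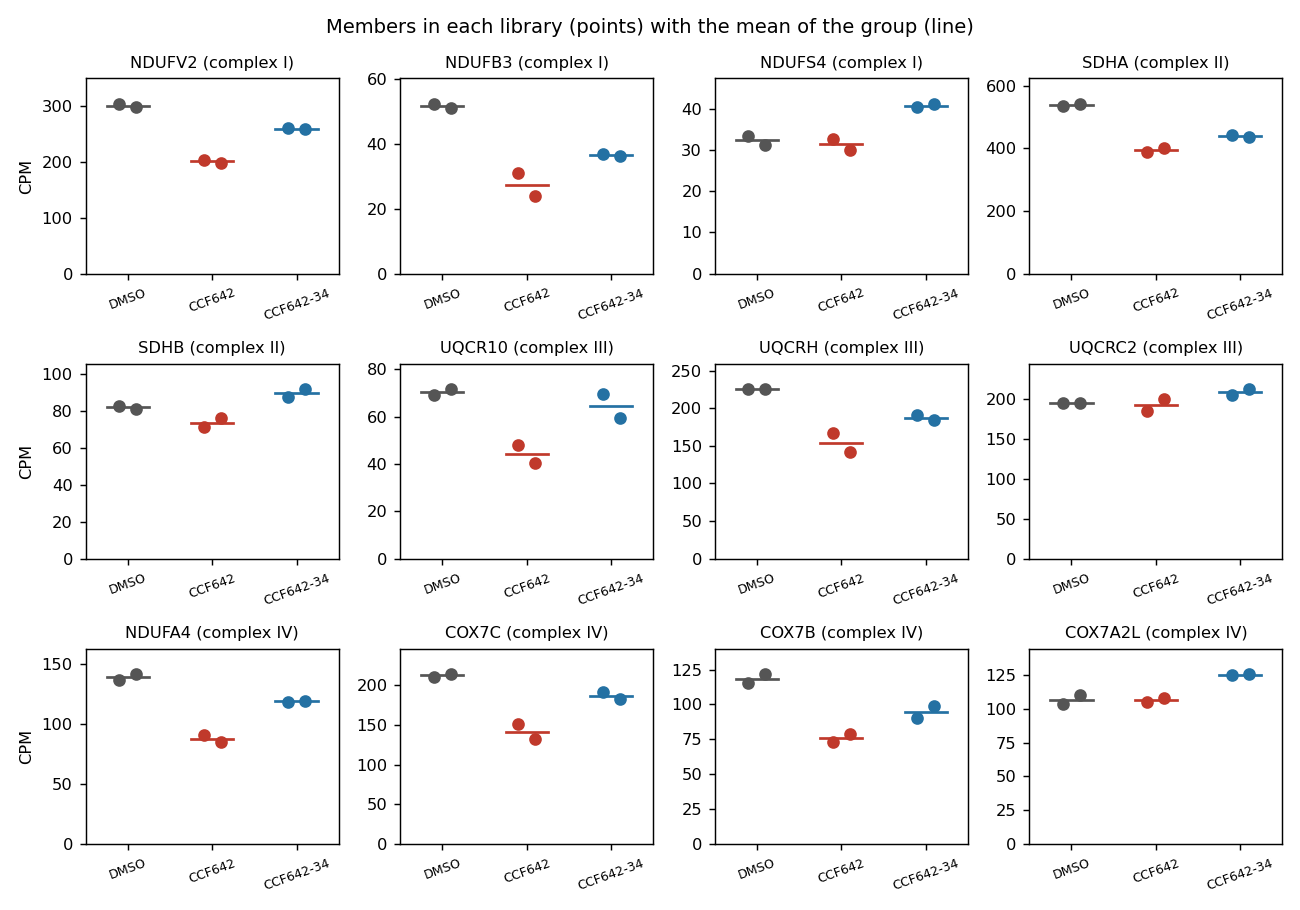
Deposited CPM of 12 members in each library (points) with the mean of each group (line), grey for DMSO, red for CCF642 and blue for CCF642-34, each axis starting at 0. In NDUFV2, NDUFB3, SDHA, UQCRH, NDUFA4, COX7C and COX7B the red points are lowest and the blue points lie between red and grey, in UQCR10 blue and grey overlap, and in NDUFS4 and COX7A2L the blue points are highest.

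With CCF642-34 the members lay close to DMSO as a group. In this comparison 13 were higher, 14 lower and 43 not called, while 29.7% of all listed genes were higher and 27.9% lower. The median was 0.02, against 0.01 for all genes. Without scaling the split was 6 higher and 23 lower with a median of -0.07, so the balance of directions depends on it. Both CCF642-34 libraries lay above both DMSO libraries for 25 members (39.9% of all genes) and below them for 19 (39.0%). At the 2-fold criterion 0 members were called by limma, against 3.87% of all genes in either direction and 2.59% upward, and without the fold limit 27 passed the adjusted p in either direction. The 14 members lower with CCF642-34 were also lower with CCF642, a comparison that uses the same DMSO libraries. Of the 3077 listed genes lower with CCF642-34, 2436 were also lower with CCF642, so most of this agreement is general to the data. The 14 members were COX5A, COX6C, COX7B, NDUFA4, NDUFAB1, NDUFAF6, NDUFB3, NDUFB4, NDUFC1, NDUFC2, NDUFS5, NDUFV2, SDHA and UQCRH. The 13 that were higher were COX7A2L, NDUFA4L2, NDUFA7, NDUFA11, NDUFAF3, NDUFAF5, NDUFB5, NDUFB11, NDUFS4, NDUFS7, NDUFS8, SDHB and UQCRC2.

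Compared directly at the same dose and time, 50 of the 70 members (71.4%) were higher with CCF642-34 than with CCF642, 0 were lower and 20 were not called. Over all listed genes 15.9% were higher and 17.4% lower. The median difference was 0.22, or 16.8%, against 0.01 over all genes, and both CCF642-34 libraries lay above both CCF642 libraries for 61 members (32.4% of all genes) and below them for 1 (31.0%). By complex the higher members were 28 of 44 in complex I (median 0.22), 4 of 4 in complex II (0.25), 6 of 9 in complex III (0.16) and 12 of 13 in complex IV (0.22). Supernumerary subunits had 40 of 49 higher with a median of 0.25, core subunits 7 of 12 with a median of 0.12, and assembly factors 3 of 8 with a median of 0.18. At the 2-fold criterion 0 members were called, against 0.308% of all genes in either direction and 0.00905% upward. For the 20 members without a call the estimates ran from -0.19 (NDUFA4L2) to 0.37 (NDUFC2), and their 95% intervals spanned -0.67 to 0.68. That of the abundant NDUFV1 ran from -0.05 to 0.13. Intervals of this width do not show that the compounds acted alike on these genes.

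**Figure D4:**
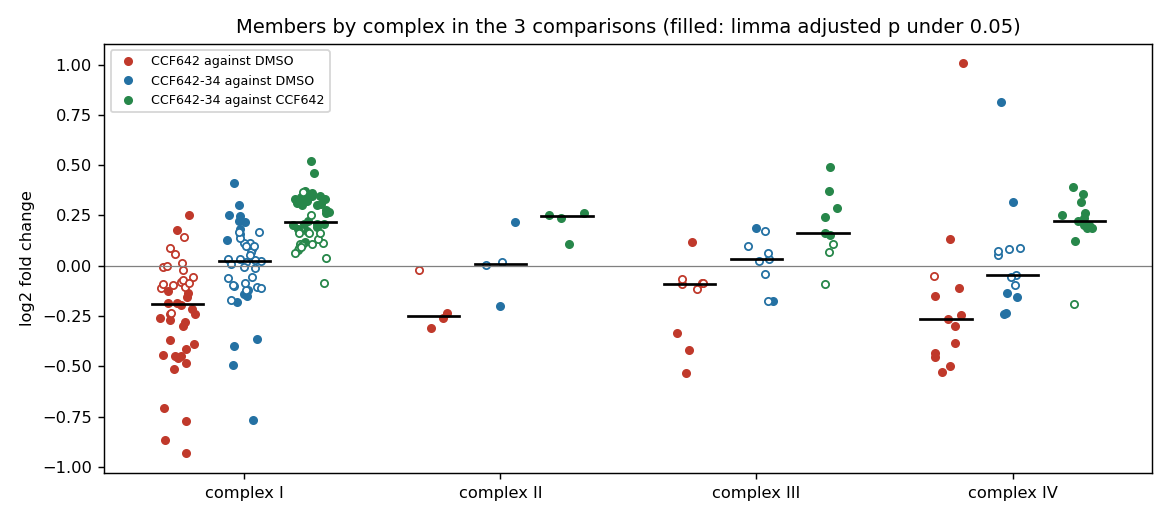
Log2 fold change of each member (points) by complex, for CCF642 against DMSO (red), CCF642-34 against DMSO (blue) and CCF642-34 against CCF642 (green); filled points have an adjusted p under 0.05 by limma, and black lines mark medians. Red medians lie between -0.09 and -0.26, blue medians near 0 and green medians between 0.16 and 0.25, with 0 filled green points below 0.

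Of the 42 members lower with CCF642, 37 were higher with CCF642-34 than with CCF642. Among all listed genes 3457 were lower with CCF642, and 1105 of these held the same pattern (10.0% of all 11048). Both tests share the CCF642 libraries, so a low value in those libraries enters both. Among the 42, 26 were not called with CCF642-34 compared to DMSO (8.99% of all genes), 14 were lower with both (22.0%) and NDUFA7 and NDUFAF3 were lower with CCF642 and higher with CCF642-34 (0.253%). Of the 14 that were lower with both, 11 were still higher with CCF642-34 than with CCF642, and the other 3 were NDUFAF6, NDUFC2 and NDUFS5. Of the 2436 listed genes lower with both, 530 were so (4.8% of all genes). Higher with both compounds were COX7A2L, NDUFA4L2, NDUFS7 and UQCRC2 (24.3% of all genes), 7 members were higher with CCF642-34 only (5.21%), NDUFAF7 was higher with CCF642 only (6.92%), 0 were lower with CCF642-34 only (5.16%) and 16 were called with neither (26.5%).

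Several measured features move with these results. The libraries of a group differed, since 46 of the 70 members were higher in CCF642 replicate 1 than in replicate 2, 45 higher in CCF642-34 replicate 1 than in replicate 2, and 49 lower in DMSO replicate 1 than in replicate 2. Over all 11048 listed genes 5408 were lower in DMSO replicate 1, and the CCF642 and CCF642-34 replicates were not so compared over all genes. Without CCF642-34 replicate 1 the members higher with CCF642-34 than with CCF642 numbered 30, and without any 1 library the members lower with CCF642 numbered 32 to 42. Exons of 17 members overlap those of another listed gene on the opposite strand; among the other 53, 32 were lower and 3 higher with CCF642 (median -0.21), and in the direct comparison CCF642-34 had 37 higher and 0 lower (median 0.22). Spearman's rho across the members between transcript length and log2 fold change was 0.28 with CCF642, 0.12 with CCF642-34 and -0.34 between the compounds, against 0.02, -0.09 and -0.19 across all genes. Genes are not independent replicates, and these are descriptions over libraries of unequal depth. With a correction for GC content and length, 40 members were lower with CCF642 and 47 were higher with CCF642-34 than with CCF642.

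Under all 12 other settings and in all 6 fits without 1 library, 29 of the 42 decreases with CCF642 and 25 of the 50 differences between the compounds were called in the same direction. These included NDUFV2, NDUFA4, COX7B, COX7C, SDHC, SDHD, UQCR10, UQCR11 and UQCRH in both comparisons. Of the 5 increases with CCF642 0 were so called, of the 13 increases with CCF642-34 4 (COX7A2L, NDUFB5, NDUFS4 and NDUFS7), and of its 14 decreases 6 (COX7B, NDUFAF6, NDUFB3, NDUFC1, NDUFC2 and SDHA). The setting of a minimum mean of 5 CPM leaves out genes of low expression such as NDUFA4L2. How many of all listed genes kept their calls under the same fits was not counted. The kept calls therefore cannot be read as particular to the members.

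**Figure D5:**
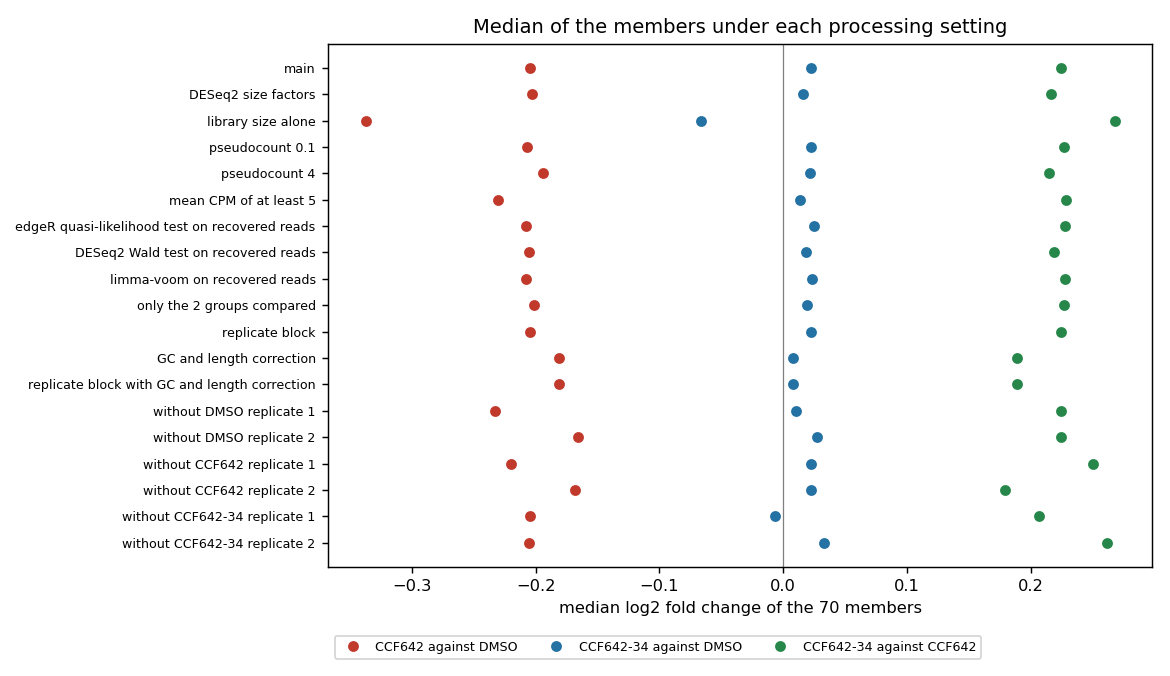
Median log2 fold change of the members (x axis) under each processing setting and without each library (y axis), for CCF642 against DMSO (red), CCF642-34 against DMSO (blue) and CCF642-34 against CCF642 (green). Red medians stay below 0 and green medians above 0 in every row shown, and blue medians lie near 0, the lowest at -0.07 with library size alone.

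Other genes of the pathway were taken from lists, and their counts can be set beside the shares of all listed genes, which were 31.3% lower and 31.8% higher with CCF642, 27.9% and 29.7% with CCF642-34, and 17.4% and 15.9% between the compounds. No list was tested against the members or against other genes. Of 44 listed assembly factors outside the symbol rule, 19 were lower and 4 higher with CCF642, 7 lower and 8 higher with CCF642-34, and 0 lower and 13 higher between the compounds. Without 1 library these were 15 to 20 lower and 2 to 3 higher with CCF642, 4 to 9 lower and 3 to 8 higher with CCF642-34, and 0 to 1 lower and 10 to 14 higher between the compounds. LYRM7, an assembly factor of complex III, had 43.7 and 38.9 CPM with DMSO, 21.5 and 21.8 CPM with CCF642, and 24.7 and 26.3 CPM with CCF642-34 (log2 fold changes -0.77 and -0.59). COX19, a copper-related factor of complex IV, had 16.4 and 15.7 CPM with DMSO, 34.6 and 27.4 CPM with CCF642, and 29 and 30.0 CPM with CCF642-34 (1.03 and 0.93). Both compounds thus stood apart from DMSO in these 2 genes, in opposite directions.

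Cytochrome c (CYCS) had 332 and 324 CPM with DMSO, 334 and 288 CPM with CCF642, and 337 and 346 CPM with CCF642-34, and it was called higher with CCF642-34 (0.15, adjusted p = 0.0055) and not with CCF642 (0.05) or between the compounds (0.09). The call was lost without DMSO replicate 2 (0.13, adjusted p = 0.068), without CCF642-34 replicate 2 (0.13, adjusted p = 0.079) or without scaling (0.06, adjusted p = 0.298). The change of CYCS with CCF642 was -0.05 without CCF642 replicate 1 and 0.15 (adjusted p = 0.0014) without CCF642 replicate 2, and the compounds differed by 0.19 (adjusted p = 0.00023) without CCF642 replicate 1 and by 0.14 (adjusted p = 0.018) without scaling. It was 1 of 2 listed genes among cytochrome c and subunits outside the symbol rule. The other, CYC1, was not called against DMSO but was higher with CCF642-34 than with CCF642 (0.13). The number of calls in this pair of genes changed when 1 library was left out. The 18 genes of the citric acid cycle and pyruvate dehydrogenase were 6 higher and 8 lower with CCF642, 7 and 4 with CCF642-34, and 6 and 2 between the compounds. Without 1 library they were 4 to 6 higher and 4 to 8 lower, 4 to 8 and 3 to 4, and 3 to 7 and 0 to 2. IDH3A, of the NAD-dependent isocitrate dehydrogenase, was lower with both (-0.44 and -0.21, the second being -0.14 with adjusted p = 0.131 without CCF642-34 replicate 1), OGDH was higher with both (0.38 and 0.23), and SUCLG1 was higher with both (0.14 and 0.26), though its call with CCF642 was lost without either DMSO library, without CCF642 replicate 1 (0.07, adjusted p = 0.33), by DESeq2 (0.14, adjusted p = 0.07) and without scaling (0.01, adjusted p = 0.92). Among 11 listed genes of ubiquinone synthesis, 5 were lower and 1 higher with CCF642, 3 and 2 with CCF642-34, and 0 and 3 between the compounds, where 0 to 2 were higher without 1 library. COQ2, which attaches the side chain of ubiquinone, was lower with both (-0.73 and -0.59), as was PDSS1 (-0.65 and -0.86), whereas COQ10B was higher with both (1.06 and 1.05).

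Of 6 listed adenine nucleotide carriers, phosphate carrier and porins, 4 were lower and 1 higher with CCF642, 2 and 0 with CCF642-34, and 0 and 2 between the compounds. VDAC1, a porin of the outer membrane, was lower with both (-0.34 and -0.17), SLC25A3, the phosphate carrier, was lower by the same amount with both (-0.21), and VDAC2 was called higher with CCF642 only (0.13), a change that was lost without scaling and without DMSO replicate 2 (0.09, adjusted p = 0.262). Of 17 listed regulators of mitochondrial biogenesis, 6 were lower and 3 higher with CCF642, 8 and 2 with CCF642-34, and 4 and 1 between the compounds. PPARGC1A, a coactivator of mitochondrial genes, had 56.9 and 55.8 CPM with DMSO, 123 and 139 CPM with CCF642, and 111 and 118 CPM with CCF642-34, and its relative PPARGC1B had 32.8 and 33.4 CPM, 14.9 and 13.2 CPM, and 15.9 and 17.5 CPM in the same order. These coactivators changed in opposite directions with each compound, by 1.33 and 1.10 for PPARGC1A and -1.05 and -0.86 for PPARGC1B.

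Ribosomal protein genes, chosen after values had been seen, served as 2 further sets. Their transcript lengths and levels were not compared with those of the members. Of 75 mitochondrial ribosomal protein genes, 33 were lower and 14 higher with CCF642, 15 lower and 20 higher with CCF642-34, and 1 lower and 28 higher between the compounds (medians -0.12, 0.03 and 0.15). When replicate 1 or 2 of CCF642-34 was left out, 15 or 17 were higher between the compounds, and the 15 lower with CCF642-34 became 10 without DMSO replicate 1 or CCF642-34 replicate 2 and 9 without DMSO replicate 2. Of 80 cytosolic ones, 8 were lower and 36 higher with CCF642, 3 lower and 66 higher with CCF642-34, and 1 lower and 48 higher between the compounds (medians 0.08, 0.21 and 0.11). The cytosolic set thus had more genes above DMSO than below with CCF642-34, whereas 13 members were higher and 14 lower there. The cytosolic counts with CCF642 turned to 30 lower and 12 higher without scaling, and the 36 higher became 22 without DMSO replicate 1. The 48 between the compounds became 21 without CCF642-34 replicate 1. The differences between the sets were not tested.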

How the data were processed

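MM1.S cells received DMSO, 3 µM CCF642 or 3 µM CCF642-34 for 6 h, with 2 libraries per group. NucleoSpin-purified RNA went through oligo(dT) selection and random-hexamer priming. The submitters' processing notes name STAR, edgeR 3.24.3, limma 3.38.3 and hg19; the counter, annotation and strand setting are not given in the sources used here. The authors deposited CPM values, read from the values themselves, for 11048 genes, and the lowest maximum of a gene was 1.50 CPM, so genes below it had been left out. All values (100%) were whole multiples of 1 read within 0.02 reads.

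CPM were scaled by TMM factors (edgeR 4.0.16) of 0.957 to 1.05, increased by a pseudocount of 1 and converted to log2, on which scale changes of low genes are understated. All genes and groups were fitted together with limma 3.58.1 with a mean-variance trend in R 4.3.3, without a replicate block, and p values (two-sided) were adjusted by Benjamini-Hochberg over 11048 genes for each of 3 comparisons. In simulated reads of these libraries for CCF642-34 against DMSO, 92 of 100 genes changed 1.5-fold, 54 of 100 changed 1.2-fold and 10 of 10848 unchanged genes were called. The simulation left most genes unchanged and gave all of them a common spread, whereas 6362 of 11048 genes were called in the data. The cutoff for a call thus differed, and these shares need not hold for the data. Replicate libraries differed by more than sampling noise in every group, with a chi-square per gene of 2.30 to 4.64. Length and GC content came from GENCODE 29 transcripts.

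The members, the role and pathway lists and the motifs were chosen with earlier results of these data known. Genes named with values were the 2 largest called increases and decreases per complex and comparison, all of complex II, paralogue pairs and the extremes of each pathway list (24 members and 14 others); the rest are said to be chosen later. Alternatives were other scalings, pseudocounts of 0.1 and 4, a minimum mean of 5 CPM, edgeR's quasi-likelihood test, DESeq2 1.42.0 and limma-voom on recovered reads, fits of 2 groups, a replicate block, GC and length correction, and fits without each library.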

Additional observations from a re-analysis of the deposited data

How the results depend on the processing

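Library size alone, in place of TMM, moved the median of all genes by -0.12 with CCF642, -0.08 with CCF642-34 and 0.04 between the compounds. With it 1 member was higher with CCF642 and the median was -0.34, 6 were higher and 23 lower with CCF642-34 and the median was -0.067, and the median between the compounds was 0.27; with CCF642, UQCRC2 (-0.017), COX7A2L (-0.0018) and VDAC2 (-0.00041) changed sign. DESeq2's Wald test called 3 members higher with CCF642 and 41 between the compounds. The GC and length correction, with or without the replicate block, lowered the median between the compounds to 0.19. The replicate numbers did not pair the libraries, with correlations of deviations of -0.027, -0.058 and 0.070, and the block gave 5 higher and 41 lower with CCF642, 13 and 15 with CCF642-34, and 50 and 0 between the compounds.

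Without 1 library, members called numbered 35 to 47 with CCF642 (2 to 5 higher, 32 to 42 lower, median -0.23 to -0.17), 18 to 31 with CCF642-34 (7 to 15 higher, 7 to 16 lower, median -0.01 to 0.03) and 30 to 51 between the compounds, all higher (median 0.18 to 0.26). Members higher with CCF642 numbered 2 without DMSO replicate 1 and 3 without DMSO replicate 2 or CCF642 replicate 2. With CCF642-34, 7 were higher without DMSO replicate 1, 7 lower without DMSO replicate 2 and 8 lower without CCF642-34 replicate 2. Between the compounds 30 were called without CCF642-34 replicate 1. A group left with 1 library was assumed to vary like the others, and the cause of these shifts was not tested.

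With 2 libraries per group small changes can be missed, so genes without a call are not shown to be equal.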
